A study of Mus musculus with 33 samples.

Results

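Hippocampal gene expression was compared between vehicle-treated Tg2576 mice, a transgenic model of Alzheimer's disease, and their vehicle-treated wild-type littermates. The members were the arrays labelled as vehicle Tg2576 hippocampus (n = 11) and as wild-type hippocampus (n = 11), which made up 22 of the 33 arrays of the series. Tg2576 mice were male heterozygotes for a human APP transgene with the Swedish mutation of familial Alzheimer's disease, expressed from the prion promoter. Both groups shared the mixed SJL × C57BL/6J background, an age of 20 weeks (given as 5 months elsewhere in the labels) and daily oral gavage of vehicle, for 7 days by the design text and 5 days by the treatment protocol. Total RNA came from the right hippocampus after saline perfusion, 1 hour after the last dose, and each animal had its own Affymetrix MOE430 2.0 array. The other 11 arrays, Tg2576 mice given the liver X receptor agonist TO901317, entered the shared estimate of the spread, and their values are given beside a few genes as levels only. The prion promoter is active outside the hippocampus too, and the tissue was taken whole. In such bulk tissue, fewer cells of a type and less RNA per cell cannot be told apart.

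Tg2576 mice overproduce amyloid-beta, the peptide cut from APP by beta- and gamma-secretase, and deposit it as plaques later in adult life. Brain cholesterol is made locally, because lipoproteins of the blood do not cross the blood-brain barrier. Acetyl-CoA is turned into mevalonate, then into farnesyl diphosphate and squalene, and squalene is closed and trimmed to cholesterol. The transcription factor SREBP2, encoded by Srebf2, switches these enzymes on together when the endoplasmic reticulum is poor in sterol, by binding sterol regulatory elements often found near CCAAT boxes, which bind NF-Y.

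The values were array signals on a linear scale, scaled by the authors to a common trimmed mean of 99.97 on every array, with array medians of 20.9 to 25.1 in wild type and 19.5 to 28.9 in vehicle Tg2576. The Gapdh 3'/5' log2 ratio, a sign of RNA integrity, was 0.11 and 0.08 in vehicle Tg2576 replicates 3 and 4 and below 0 in all other vehicle arrays. The groups did not pass a permutation test for the array median, the Gapdh ratio or the actin ratio (3 tests with 100000 resamples, two-sided, adjusted p = 0.757, 0.629 and 0.568). The labels call the arrays biological replicates, and p-values measure only the spread between these animals. The number of arrays limits the precision.

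Few probe sets separated the genotypes. Differences are given on the log2(signal + 16) scale as vehicle Tg2576 minus wild type, tested with limma and adjusted by Benjamini-Hochberg over 45037 probe sets, where "rose" and "fell" are used for an adjusted p below 0.05. A probe set is a group of short probes that reads 1 transcript region. Of all probe sets, 39 passed (0.0866%), 20 higher (0.0444%) and 19 lower (0.0422%) in Tg2576. Of these, 36 name 1 gene each and together name 32 genes, 15 higher and 17 lower. The remaining 3 carry no single gene name here (2 higher and 1 lower). With each gene read by its brightest probe set, 24 of 18193 genes passed (0.132%), 13 higher (0.0715%) and 11 lower (0.0605%). The median log2 difference over all genes was 0.01, and 1775 genes (9.76%) had an unadjusted p below 0.05. In 7 probe sets (0.0155%), 6 higher (0.0133%) and 1 lower (0.00222%), none of the 11 Tg2576 animals overlapped any of the 11 wild-type animals.

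**Figure D1:**
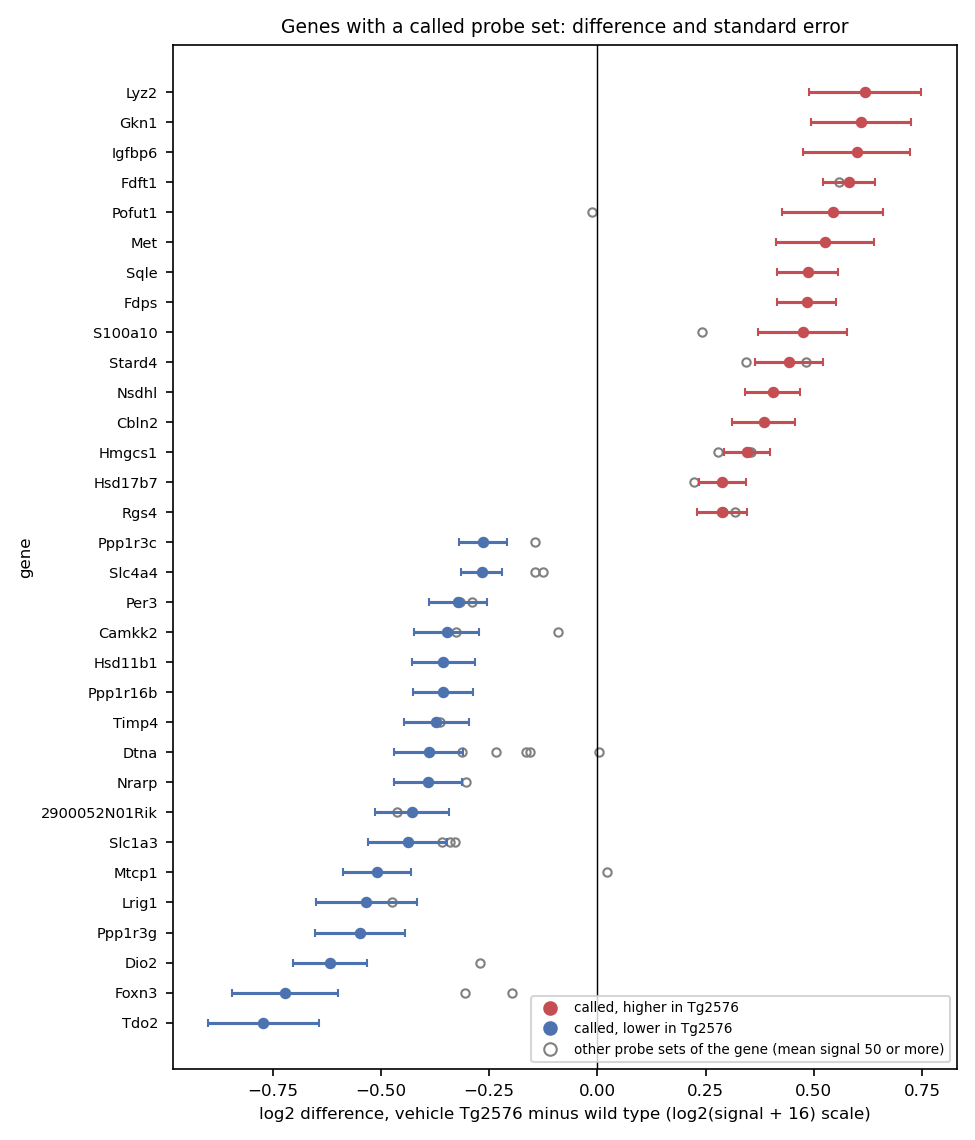
Log2 difference (vehicle Tg2576 minus wild type, log2(signal + 16) scale) with its standard error for each of the 32 genes with a probe set that passed, n = 11 animals per group; open circles are other probe sets of the same gene with a mean signal of 50 or more. The 15 genes that were higher lie between 0.29 for Rgs4 and 0.62 for Lyz2, the 17 that were lower between -0.26 for Ppp1r3c and -0.77 for Tdo2, and open circles near 0 mark Pofut1, Mtcp1 and 1 probe set of Dtna.

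Of the 15 genes that rose, 6 encode enzymes of cholesterol synthesis. Of 7 measured genes that lead from acetoacetyl-CoA to squalene, 3 rose, none fell and 4 did not pass. Of 10 measured genes that lead from squalene to cholesterol, 3 rose, none fell and 7 did not pass. All 17 differences lay above 0, as they did with quantile normalization and with array medians centred, and their median was 0.23 against 0.01 over all genes, where 55% lay above 0.

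Promoter sequences from the RefSeq table (GRCm38.p6) are shown for an early enzyme of the pathway that rose, a late enzyme that rose, and Srebf2, the gene of the factor that drives both, so that the sterol regulatory element core and the CCAAT boxes can be seen in place. Each line gives the 250 bases before the transcription start, 5′ to 3′ on the gene's strand, with matches to TCACNCCA and to CCAAT on either strand in capitals. The windows are chr13:119690101-119690350 on the plus strand for Hmgcs1, chrX:72918271-72918520 on the plus strand for Nsdhl and chr15:82147019-82147268 on the plus strand for Srebf2.
Hmgcs1: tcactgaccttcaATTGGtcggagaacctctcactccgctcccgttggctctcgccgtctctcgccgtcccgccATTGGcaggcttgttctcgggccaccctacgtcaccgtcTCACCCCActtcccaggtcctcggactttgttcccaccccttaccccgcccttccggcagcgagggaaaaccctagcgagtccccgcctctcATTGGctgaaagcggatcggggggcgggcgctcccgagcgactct
Nsdhl: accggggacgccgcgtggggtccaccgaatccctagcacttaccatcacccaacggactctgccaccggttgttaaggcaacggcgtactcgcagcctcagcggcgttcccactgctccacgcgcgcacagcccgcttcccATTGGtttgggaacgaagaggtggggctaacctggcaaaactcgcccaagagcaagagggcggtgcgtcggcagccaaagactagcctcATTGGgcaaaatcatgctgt
Srebf2: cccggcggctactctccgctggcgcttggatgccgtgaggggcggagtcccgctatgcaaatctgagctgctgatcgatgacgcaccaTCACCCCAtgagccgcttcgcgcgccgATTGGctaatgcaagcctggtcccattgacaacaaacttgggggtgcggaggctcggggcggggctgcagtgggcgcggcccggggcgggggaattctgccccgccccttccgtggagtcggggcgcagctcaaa
The Hmgcs1 window holds the core TCACCCCA at position -137, counted from the start, and 3 CCAAT boxes. The Nsdhl window holds 2 CCAAT boxes and no core in these letters. The Srebf2 window holds the same core, TCACCCCA, at position -162 and 1 CCAAT box. Windows reaching from 250 bases before to 50 bases after the start were searched for 23 genes of the cholesterol synthesis and sterol sensing lists that the table holds. The core was found in 3 of them (Hmgcs1, Srebf2 and Msmo1, the last with TCACTCCA at -177), against 4.97% of all 27025 genes. A CCAAT box on either strand was in 19 of the 23 and in 41.06% of all genes. The search allowed overlapping matches, and these matches are descriptions of the letters, not of binding. Promoters of Fdft1, Sqle, Fdps and Stard4 were not used here.

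The early steps of the pathway were read first. Hmgcs1, the cytosolic synthase that makes HMG-CoA, gave signals of 1856, 2022 and 2289 in wild type (lowest, median and highest of 11) and 2304, 2491 and 2844 in vehicle Tg2576 at its brightest probe set. No Tg2576 animal overlapped any wild-type animal, and the log2 difference was 0.28 (SE 0.05, limma adjusted p = 0.00356). Of its other probe sets, 3 differed by 0.35 each, of which 2 passed, and a dim one, with means of 8.38 and 10.6, differed by 0.12 and did not pass (adjusted p = 0.823). Fdps, which makes farnesyl diphosphate, gave 275.6, 343.6 and 400.0 in wild type and 408.5, 468.5 and 610.0 in Tg2576. The groups did not overlap here either, with a log2 difference of 0.48 (SE 0.07, adjusted p = 0.000136).

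Fdft1, squalene synthase, catalyses the first step that is committed to sterols. Its probe set of smaller p gave 379.3, 427.5 and 488.9 in wild type and 576.9, 638.3 and 844.8 in Tg2576, and its brighter probe set 396.0, 454.0 and 526.3 against 584.2, 657.2 and 831.8. All 11 Tg2576 animals exceeded the highest wild-type animal at both. The log2 difference was 0.58 (SE 0.06, adjusted p = 1.62e-07) at the first and 0.56 (adjusted p = 8.07e-06) at the second. The remaining early genes were Mvk (0.23), Pmvk (0.22) and Mvd (0.24), which carry mevalonate to isopentenyl diphosphate, and Idi1 (0.23), its isomerase. None of these 4 passed over all probe sets (adjusted p = 0.307, 0.401, 0.54 and 0.261), while each had an unadjusted p below 0.05. The summed signal of the 7 early genes was 3079 to 3846 in wild type (median 3398) and 4018 to 4924 in Tg2576 (median 4229), with all 11 Tg2576 animals above the highest wild-type animal. Bright genes such as Hmgcs1 weigh most in this sum. With genes weighted equally, the mean log2 deviation ran from -0.35 to 0.05 in wild type and from -0.0009 to 0.33 in Tg2576. By that measure the groups overlapped.

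The later steps gave fewer separate distributions. Sqle, squalene epoxidase and a rate-limiting step after squalene, gave 337.5, 408.2 and 469.3 in wild type and 501.6, 547.3 and 702.9 in Tg2576. These ranges did not overlap, and the log2 difference was 0.49 (SE 0.07, adjusted p = 0.000195). Nsdhl, which takes part in removing the methyl groups at carbon 4 of the sterol, gave 212.3, 245.7 and 287.6 against 271.1, 335.6 and 414.2. For Nsdhl 10 of 11 Tg2576 animals exceeded the wild-type range (0.41, SE 0.06, adjusted p = 0.000664). Hsd17b7, a keto-reductase of the same demethylation complex, gave 106.0, 121.8 and 130.1 against 131.2, 148.2 and 173.9. Its groups did not overlap, and the difference was 0.29 (SE 0.05, adjusted p = 0.0104), with a second probe set of Hsd17b7 at 0.22 that did not pass (adjusted p = 0.512).

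**Figure D2:**
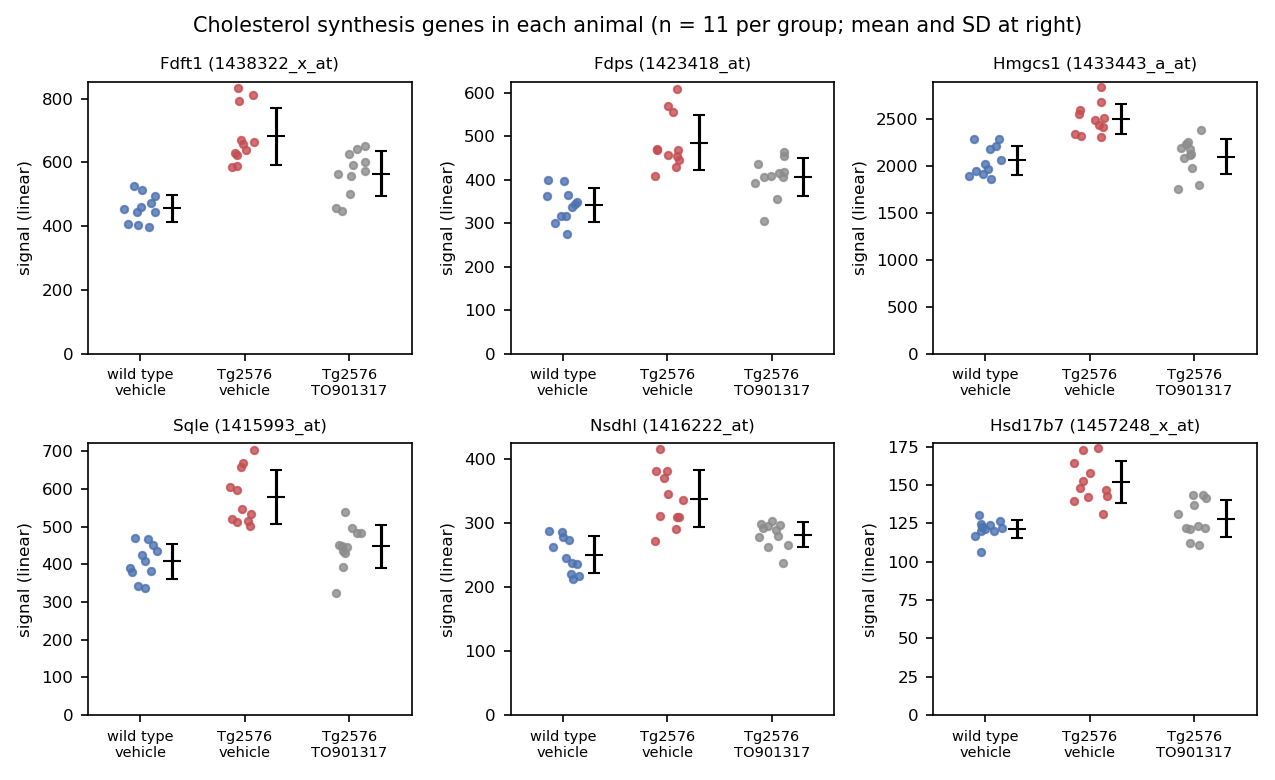
Linear signal of 6 cholesterol synthesis genes in every animal, with the group mean and SD at right of the points, for wild type on vehicle, Tg2576 on vehicle and Tg2576 on TO901317 (n = 11 each). In 5 of the 6 panels no vehicle Tg2576 point overlaps a wild-type point, and in the Nsdhl panel 1 Tg2576 animal at 271.1 lies inside the wild-type range.

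The other 7 late genes did not pass. Msmo1, the sterol methyl oxidase, read 566 in wild type and 764 in Tg2576 on average (log2 difference 0.43, adjusted p = 0.318), Lss, lanosterol synthase, differed by 0.22, and Dhcr7, which makes cholesterol from 7-dehydrocholesterol, by 0.16. These 3 had an unadjusted p below 0.05. Cyp51 (0.11), Sc5d (0.12), Tm7sf2 (0.06) and Ebp (0.05) were closer to 0. The summed signal of the 10 late genes was 1890 to 2619 in wild type (median 2090) and 2344 to 3289 in Tg2576 (median 2613), and 5 of 11 Tg2576 animals exceeded the highest wild-type animal. With genes weighted equally, their mean log2 deviation ran from -0.19 to 0.03 in wild type and from -0.03 to 0.29 in Tg2576.

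Genes that sense and move sterol were mixed. Stard4, a carrier of cholesterol between membranes and a target of SREBP2, gave 63.4, 93.3 and 110.0 in wild type and 94.6, 124.6 and 156.6 in Tg2576 at its second-brightest probe set, and 10 of 11 Tg2576 animals exceeded the wild-type range. It rose there by 0.44 (SE 0.08, adjusted p = 0.00511), while its brightest probe set differed by 0.48 and did not pass (adjusted p = 0.087). Insig1, which holds the SREBP complex in the endoplasmic reticulum and is itself a target of SREBP2, read 132.1, 180.2 and 216.3 in wild type and 195.5, 218.1 and 296.4 in Tg2576. Insig1 did not pass (log2 difference 0.31, adjusted p = 0.0742), and 8 of 11 Tg2576 animals exceeded the wild-type range. Srebf2 differed by 0.26 (adjusted p = 0.238), with 2 of 11 animals above the wild-type range. Its second probe set, with means of 168 in wild type and 172 in Tg2576, differed by 0.02 (adjusted p = 0.986). Scap, the escort of SREBP, differed by 0.01, Insig2, which like Insig1 retains it, by -0.06, and Npc1 (-0.08) and Npc2 (-0.07), which carry cholesterol out of lysosomes, also lay near 0. Of the 10 measured genes of this list, none passed at its brightest probe set, 5 lay above 0 and 5 below.

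Pathways that share regulators with cholesterol synthesis did not pass in any member. None of 11 measured LXR receptors and targets passed, with 4 above 0, 7 below and a median of -0.05. Abcg1, a cholesterol exporter, differed by -0.19 (adjusted p = 0.367), Abca1 by -0.05 (adjusted p = 0.915), Apoe by -0.15 (adjusted p = 0.627) and Srebf1 by 0.06 (adjusted p = 0.903). None of 14 fatty acid synthesis genes passed, 7 above 0 and 7 below, including Fasn at 0.05 and Acly, the enzyme that supplies cytosolic acetyl-CoA, at 0.16 (adjusted p = 0.27). None of 13 measured genes of cholesterol turnover and lipoprotein receptors passed, with 3 above 0 and 10 below. There Cyp46a1, the neuronal enzyme that clears cholesterol as 24-hydroxycholesterol, differed by 0.14 and Cyp7b1 by -0.17 (adjusted p = 0.489).

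In the TO901317-treated Tg2576 animals, the median signals were 538.5 for Fdft1 at the probe set of smaller p, 449.7 for Sqle, 409.5 for Fdps, 289.0 for Nsdhl and 122.9 for Hsd17b7. Each of these medians lay between those of wild type and vehicle Tg2576. They are levels of a separate set of animals and were not tested here.

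The calls on cholesterol genes held with each of the 22 arrays left out in turn, for Fdft1, Sqle, Fdps, Hmgcs1, Nsdhl, Hsd17b7 and Stard4, and without vehicle Tg2576 replicates 3 and 4. With array medians centred 4 of the 17 synthesis genes passed, as Hsd17b7 (0.28, adjusted p = 0.223) and the brightest Hmgcs1 probe set (0.27, adjusted p = 0.0925) lost the call. In an exact rank-sum test Nsdhl and Stard4 lost it (adjusted p = 0.073 for both). With the marker scores of dentate granule cells, astrocytes and oligodendrocytes as covariates, chosen after seeing the data, Fdft1 kept its call (0.57, adjusted p = 0.00323), and the other 6 kept their sign at 0.28 to 0.50 and lost the call (adjusted p = 0.0769 for Nsdhl to 0.238 for Fdps).

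APP itself and the enzymes around it gave no call. App read 3321, 3747 and 4609 in wild type and 3340, 3515 and 3882 in Tg2576 at its brightest probe set (log2 difference -0.10, adjusted p = 0.633), and 0.06 (adjusted p = 0.811) at its second bright one. Mouse probe sets need not read a human transcript, so these values do not check the transgene. Prnp, the prion protein gene of the mouse itself, differed by -0.03 (adjusted p = 0.913). None of 12 measured genes of the APP family and secretases passed, 3 above 0 and 9 below, among them Bace1 at -0.02, Adam10 at 0.02 and Psenen at -0.03. None of 10 proteases that degrade amyloid-beta passed, among them Mme (neprilysin) at 0.07 and Ide at -0.05.

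Among the other genes, hormone-activating enzymes fell. Dio2 encodes the deiodinase by which brain glia turn thyroxine into active thyroid hormone. It gave 257.1, 313.4 and 470.4 in wild type and 152.3, 222.0 and 267.7 in Tg2576. All but 1 of the Tg2576 animals, 10 of 11, lay below the lowest wild-type animal, and Dio2 fell by 0.62 (SE 0.09, limma adjusted p = 0.000108). Its second probe set differed by -0.27 and did not pass. Of 8 measured genes of thyroid hormone action, Dio2 fell and 7 did not pass, among them Slco1c1, a thyroxine transporter of brain vessels (-0.44, adjusted p = 0.212), and the responsive gene Klf9 (-0.10).

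Hsd11b1, which regenerates active glucocorticoid inside cells, gave 325.3, 376.5 and 466.6 in wild type and 226.6, 306.5 and 391.3 in Tg2576. The ranges overlapped, with 8 of 11 Tg2576 animals below the lowest wild-type animal, and Hsd11b1 fell by 0.36 (SE 0.07, adjusted p = 0.0273). Of the 13 measured genes of glucocorticoid activation, receptors and targets, 1 fell and 12 did not pass, with 12 of 13 below 0 and a median of -0.18. Tsc22d3 (-0.24) and Zbtb16 (-0.21), both glucocorticoid-induced, had an unadjusted p below 0.05, while the receptor gene Nr3c1 was at -0.03 and Fkbp5 at -0.07. Per3, a period gene of the circadian clock, fell from 175.0, 207.6 and 235.3 to 126.9, 157.7 and 204.5 (-0.32, SE 0.07, adjusted p = 0.0335), with 9 of 11 animals below the wild-type range. Of 15 clock genes Per3 fell and 14 did not pass. Below 0 with an unadjusted p under 0.05 were also Per2 (-0.26), Dbp (-0.26), Cry1 (-0.30) and Tef (-0.16), and above 0 was Arntl, which encodes BMAL1 (0.19).

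**Figure D3:**
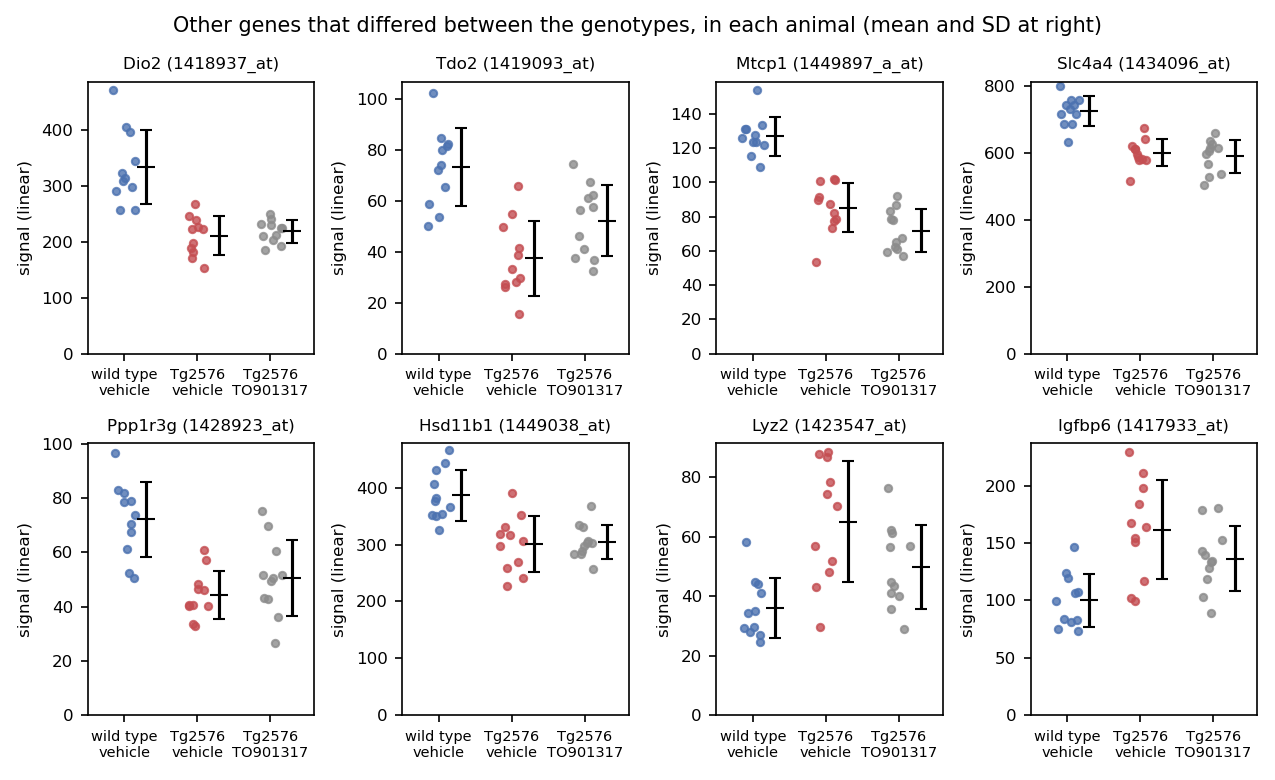
Linear signal of 8 other genes that passed, in every animal, with the group mean and SD at right, for the 3 groups of 11. Dio2, Tdo2, Mtcp1, Slc4a4, Ppp1r3g and Hsd11b1 sit lower and Lyz2 and Igfbp6 higher in vehicle Tg2576 than in wild type, and only for Mtcp1 are the 2 vehicle groups fully apart.

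Genes of glycogen handling and of astrocytes were also among those that fell. Ppp1r3g and Ppp1r3c bring protein phosphatase to glycogen and so favour its storage. Ppp1r3g gave 50.5, 73.6 and 96.9 in wild type and 32.8, 40.6 and 60.9 in Tg2576, with 9 of 11 below the wild-type range (-0.55, SE 0.10, adjusted p = 0.0127). Ppp1r3c fell by 0.26 (adjusted p = 0.0388), and 1 Tg2576 animal was above the highest wild-type animal. The other 11 of the 13 measured glycogen genes did not pass, and their differences ran from -0.22 for Phkg1 to 0.08 for Stbd1.

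Slc4a4, the sodium bicarbonate cotransporter of astrocytes, gave 634.3, 731.7 and 799.6 in wild type and 516.7, 598.4 and 675.0 in Tg2576. Of the Tg2576 animals 9 of 11 lay below every wild-type animal, and Slc4a4 fell by 0.27 (SE 0.05, adjusted p = 0.00511). The 2 other Slc4a4 probe sets with a mean signal of 50 or more differed by -0.14 and -0.13 and did not pass (adjusted p = 0.685 and 0.903). Slc1a3, the glial glutamate transporter GLAST, fell by 0.44 and 0.36 at 2 probe sets (adjusted p = 0.0345 at both), while its brightest one differed by -0.34 and did not pass (adjusted p = 0.187). Of 16 homeostatic astrocyte markers 1 fell, 15 did not pass and 14 lay below 0, with a median of -0.15. Slc1a2, the glutamate transporter GLT-1, differed by -0.29, Acsbg1 by -0.31 and Gja1 (connexin 43) by -0.16, each with an unadjusted p below 0.05, and Aqp4, the water channel, by 0.13. The summed signal of the list was 15046 to 19309 in wild type (median 17398) and 14508 to 16728 in Tg2576 (median 15245). With array medians centred Slc4a4 lost its call (-0.28, adjusted p = 0.0732).

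Reactive astrocyte genes lay mostly above 0. S100a10, an annexin partner, gave 75.2, 119.5 and 145.4 in wild type and 131.3, 154.1 and 220.8 in Tg2576, and rose by 0.47 (SE 0.10, adjusted p = 0.0492). A second S100a10 probe set, with means of 92.2 in wild type and 110.5 in Tg2576, differed by 0.24 and did not pass (adjusted p = 0.686). S100a10 was the 1 of 10 measured reactive genes that rose, and 8 of the 10 lay above 0 with a median of 0.16. Gfap, the intermediate filament of astrocytes, gave 166.9, 235.3 and 307.9 against 197.6, 282.4 and 480.0 and did not pass (0.33, adjusted p = 0.452), nor did its second probe set (0.52, adjusted p = 0.087). Serpina3n differed by 0.40 and Vim by 0.29, each with an unadjusted p below 0.05. The summed signal of these genes was 662.8 to 998.5 in wild type and 786.5 to 1381 in Tg2576, with 7 of 11 Tg2576 animals above the highest wild-type animal. S100a10 lost its call in 17 of the 22 fits that left out 1 array, at 0.42 to 0.50.

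Among the immune lists 1 gene passed, Lyz2, the lysozyme of microglia and macrophages. Lyz2 was dim, at 24.4, 34.3 and 58.1 in wild type and 29.7, 70.5 and 88.3 in Tg2576, and 6 of 11 Tg2576 animals exceeded the wild-type range (0.62, SE 0.13, adjusted p = 0.0345). None of 12 measured microglia markers passed, including Csf1r at 0.03, P2ry12 at 0.06 and C1qb at 0.17. Of 12 measured genes of plaque-associated microglia Lyz2 rose and 11 did not pass, with Trem2 at 0.01, Cst7 at 0.04, Tyrobp at 0.18 and Cd68 at 0.18. None of 7 interferon response genes passed. Lyz2 lost its call in 13 of the 22 fits that left out 1 array, at 0.58 to 0.70, and without vehicle Tg2576 replicates 3 and 4 (0.58, adjusted p = 0.136).

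Igfbp6, a binder of insulin-like growth factors, gave 73.1, 99.1 and 146.2 in wild type and 99.2, 163.8 and 229.3 in Tg2576, with 8 of 11 above the wild-type range (0.60, SE 0.12, adjusted p = 0.0335). It belongs also to the 14 meningeal fibroblast genes, where it alone rose and 13 did not pass. The list had 12 of 14 members above 0 and a median of 0.38, with 9 members above 0 at an unadjusted p below 0.05, among them Slc6a13 (0.67), Col3a1 (0.56), Slc22a6 (0.48) and the matrix proteoglycan gene Dcn (0.52). Its summed signal overlapped between the groups, at 4043 to 7875 in wild type (median 4911) and 4280 to 8177 in Tg2576 (median 5849), and no member had a group mean of 0. With the scores of meningeal, choroid plexus and thalamic and striatal markers as covariates, Igfbp6 (0.48, adjusted p = 0.366), Lyz2 (0.40, adjusted p = 0.295) and S100a10 (0.39, adjusted p = 0.484) lost their calls. So did Stard4 (0.45, adjusted p = 0.0568), Tdo2 (-0.71, adjusted p = 0.086), Cbln2, Gkn1 and Ppp1r3g, among others. Fdft1, Sqle, Fdps, Hmgcs1, Nsdhl, Hsd17b7, Dio2, Mtcp1 and Slc4a4 kept theirs in that fit. Igfbp6 is itself a member of the meningeal score, so its lost call there is partly built in. Igfbp6 lost its call in 14 of the 22 fits that left out 1 array.

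**Figure D4:**
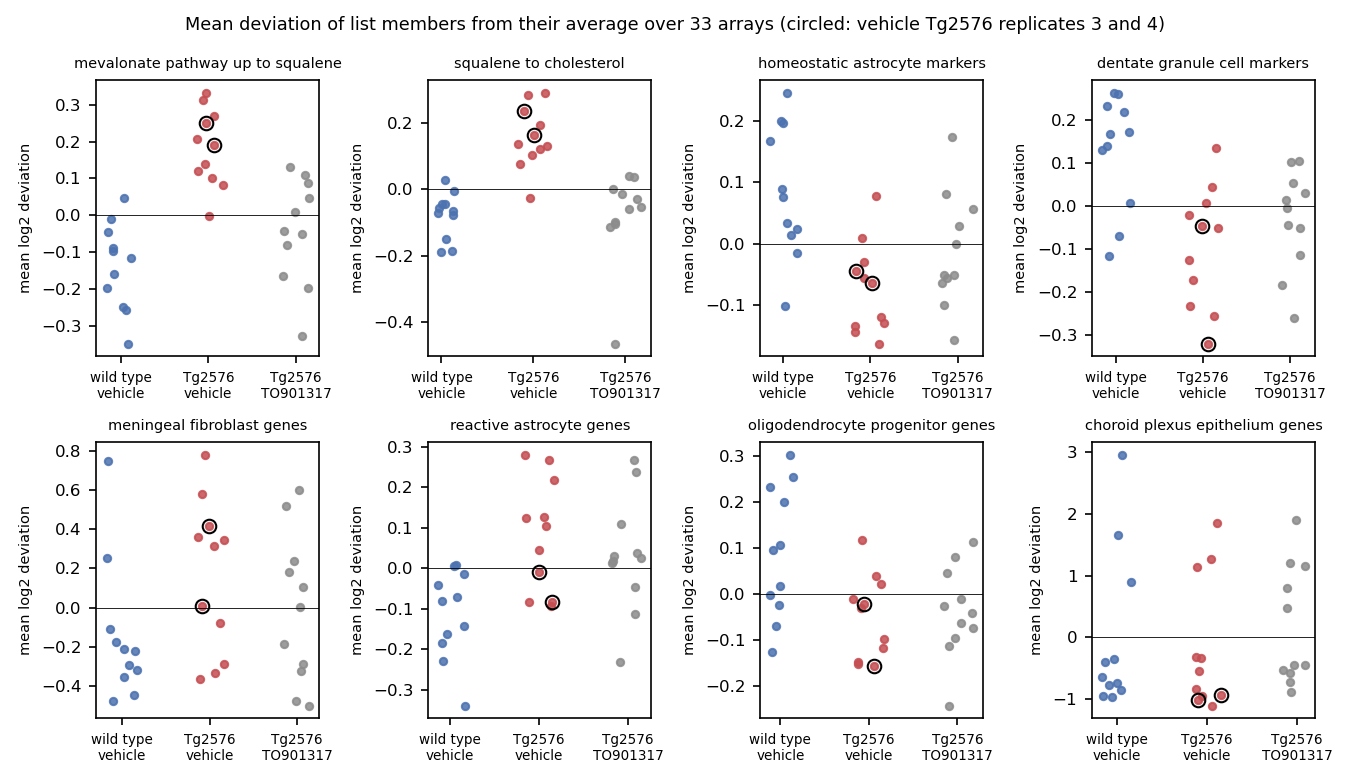
Mean log2 deviation of the members of 8 gene lists from their average over the 33 arrays, in each animal of the 3 groups (n = 11 each), with vehicle Tg2576 replicates 3 and 4 circled. The early cholesterol list has a median of -0.12 in wild type and 0.19 in vehicle Tg2576, the astrocyte list 0.08 and -0.06, the dentate list 0.17 and -0.05, and the choroid plexus list spreads from -0.95 to 2.95 in wild type and from -1.10 to 1.85 in vehicle Tg2576.

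Markers of hippocampal fields and neighbouring tissue were set beside these results. Tdo2, tryptophan dioxygenase, the first enzyme of the kynurenine route and a marker of dentate granule cells, gave 50.2, 74.1 and 102.4 in wild type and 15.6, 33.3 and 65.7 in Tg2576. It fell by 0.77 (SE 0.13, adjusted p = 0.00167), 9 of 11 Tg2576 animals lay below the wild-type range, and the other 2 probe sets of Tdo2, both dim, differed by -0.04 and -0.12. Among 12 dentate granule cell markers the others did not pass, and 10 of 12 lay below 0 with a median of -0.19. Dsp, a desmosome gene of granule cells, differed by -0.59 and Lct by -0.37, while Prox1, which defines the granule cell, was at -0.18 (adjusted p = 0.799), Calb1 at -0.10 and C1ql2 at 0.05. The summed dentate signal was 3022 to 3911 in wild type and 2795 to 3711 in Tg2576. None of 13 markers of CA1, CA2 and CA3 pyramidal cells passed, and Wfs1, a CA1 marker, was at -0.02.

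Myelin and progenitor genes lay mostly below 0. None of 11 measured oligodendrocyte genes passed, with 10 below 0 and a median of -0.16, including Mbp at -0.16 (adjusted p = 0.349), Mobp at -0.28 and Ermn at -0.35. None of 9 oligodendrocyte progenitor genes passed, with 6 below 0, including Olig1 at -0.22 (adjusted p = 0.318) and Olig2 at -0.28. Thalamic and striatal markers had a median of 0.14, none of 11 passed, and 6 of 11 Tg2576 sums lay above the highest wild-type sum, with Slc17a6, a vesicular glutamate transporter of thalamus, at 0.47 (adjusted p = 0.261). Choroid plexus genes varied widely inside both groups. Ttr, transthyretin, ran from 222.9 to 5968 in wild type and from 60.2 to 6008 in Tg2576. None of 10 measured choroid genes, 11 endothelial genes, 8 pericyte genes or 7 blood cell genes passed. The part that these marker levels play in the changes of single genes was not tested beyond the fits with their scores as covariates.

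**Figure D5:**
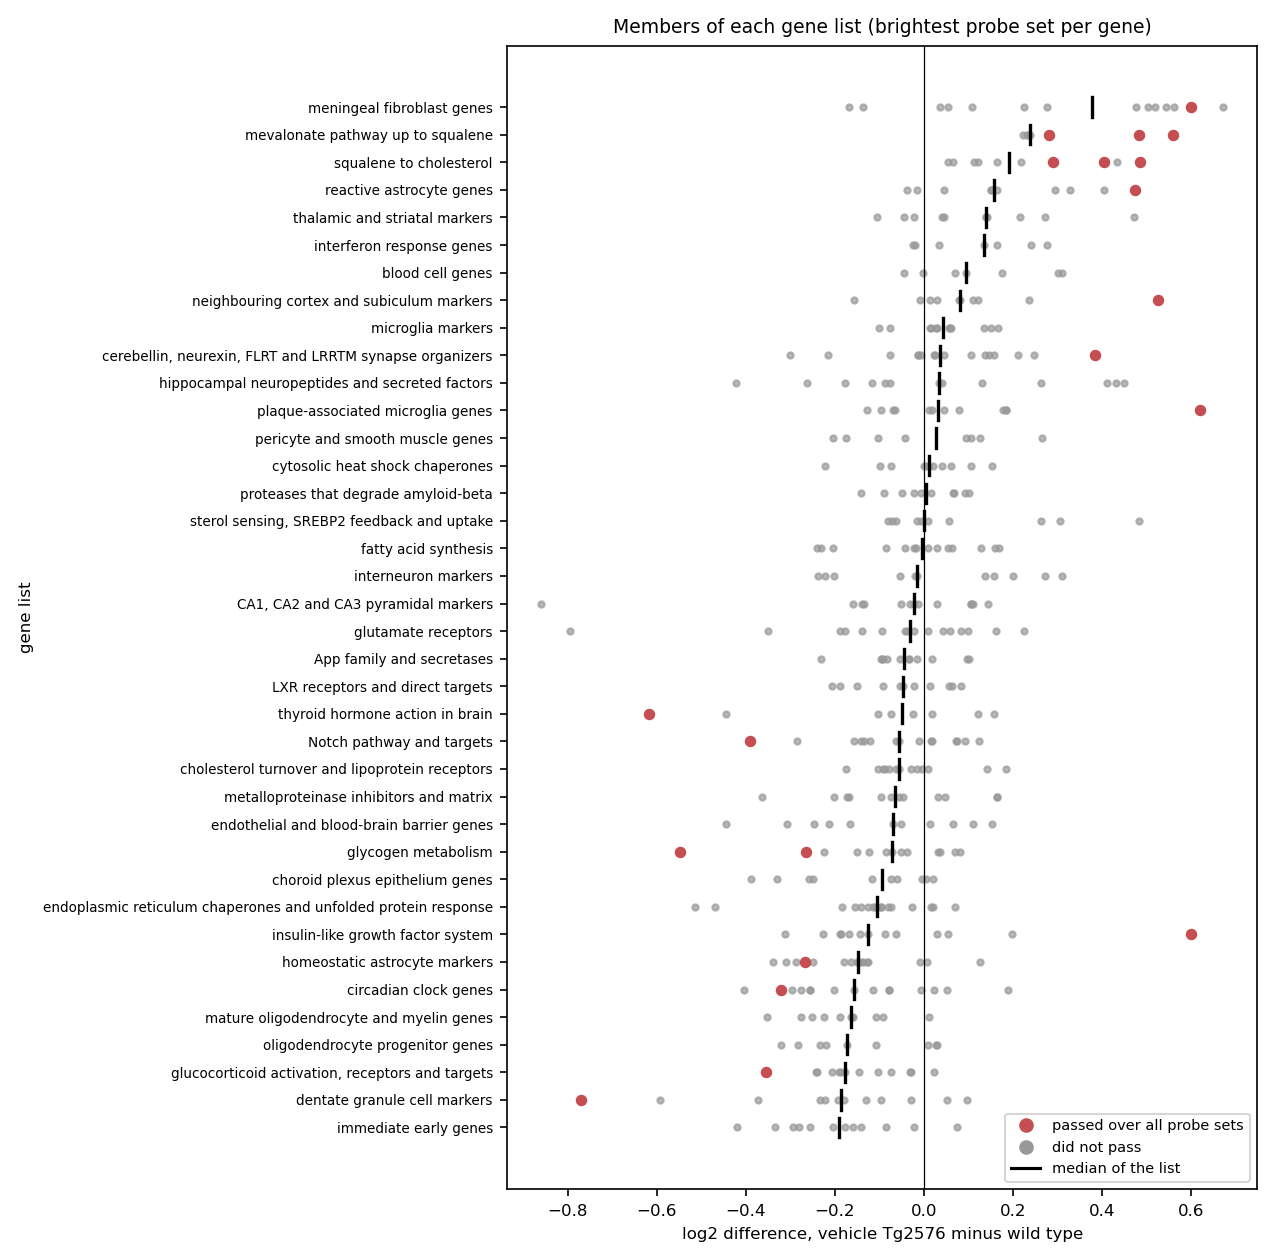
Log2 difference (vehicle Tg2576 minus wild type) of each measured member of the 38 gene lists, 1 point per gene at its brightest probe set, with the list median as a bar and members that passed in red. The 7 early cholesterol genes have a median of 0.24 and the 10 later ones 0.19, the meningeal list has the highest median, 0.38, with 1 member that passed, and the immediate early list the lowest, -0.19, with none.

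Several calls belonged to genes outside these groups. Mtcp1, a small proto-oncogene product that activates AKT kinases, gave 109.3, 126.0 and 154.0 in wild type and 53.6, 87.2 and 102.0 in Tg2576 at its brightest probe set. No Tg2576 animal overlapped any wild-type animal, and it fell by 0.51 (SE 0.08, adjusted p = 0.000664), but a second probe set of Mtcp1, at 80.6 and 82.7 on average, differed by 0.02. Foxn3, a forkhead repressor, fell by 0.72 at 1 probe set (adjusted p = 0.00227, 10 of 11 below the wild-type range), and its 2 brighter probe sets differed by -0.20 and -0.30 and did not pass. Nrarp, a feedback inhibitor of Notch, gave 226.0, 269.8 and 348.0 against 164.0, 202.6 and 246.8 and fell by 0.39 (adjusted p = 0.027). It was the 1 of 15 Notch genes that fell, and Hes1 (0.07), Hes5 (0.12) and Hey1 (-0.16) did not pass.

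Lrig1, a brake on growth factor receptors, fell by 0.53 at 1 probe set (adjusted p = 0.0496). The brightest Lrig1 probe set differed by -0.47 and did not pass (adjusted p = 0.566). Dtna, which encodes dystrobrevin alpha, fell by 0.39 at 1 probe set (adjusted p = 0.0335). Of 5 other Dtna probe sets with a mean signal of 50 or more, none passed and 4 lay below 0. The brightest of them differed by -0.31 (adjusted p = 0.546) and another by 0.003. Timp4, a metalloproteinase inhibitor, fell by 0.37 at 1 probe set (adjusted p = 0.0264) and differed by -0.36 at the brighter one (adjusted p = 0.0541). Ppp1r16b, a phosphatase subunit, fell by 0.36 (adjusted p = 0.0141), and the unplaced transcript 2900052N01Rik by 0.43 (adjusted p = 0.0223). Camkk2, a calcium-dependent kinase of AMPK, fell by 0.35 at 1 probe set (adjusted p = 0.0478). The brightest Camkk2 probe set differed by -0.33 (adjusted p = 0.349) and another by -0.09 (adjusted p = 0.905), neither passing.

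The genes that rose outside the groups above included Cbln2, a secreted cerebellin that organizes synapses. Cbln2 gave 47.8, 60.8 and 75.1 in wild type and 72.8, 87.7 and 100.9 in Tg2576, with 8 of 11 above the wild-type range (0.38, SE 0.07, adjusted p = 0.0115). It was the 1 of 16 measured synapse organizers that rose, while Nrxn2 differed by -0.30 and Flrt2 by 0.21, neither passing. Met, the hepatocyte growth factor receptor, gave 8.03, 16.1 and 23.9 against 16.04, 31.65 and 46.61 (0.53, adjusted p = 0.0457). Rgs4, a regulator of G protein signalling, rose by 0.29 (adjusted p = 0.0228). Gkn1 (0.61, adjusted p = 0.0113) and Pofut1 at 1 probe set (0.54, adjusted p = 0.0457) were dim, with means under 20 in both groups, and the brightest Pofut1 probe set differed by -0.01.

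Across the 32 genes that passed, 16 kept the call with each of the 22 arrays left out in turn, 9 higher and 7 lower. Beside the 7 cholesterol genes these were Cbln2, Gkn1, Dio2, Tdo2, Mtcp1, Slc4a4, Ppp1r3g, Ppp1r16b and Foxn3. The others lost it at least once. Rgs4 lost it without wild-type replicate 3 or without vehicle Tg2576 replicate 2 or 4, at values of 0.26 to 0.31 over all such fits, and 2900052N01Rik without wild-type replicate 1 or vehicle Tg2576 replicate 9 or 10, at -0.47 to -0.38. Lrig1, Met, Pofut1 and Ppp1r3c lost it in 17 of the 22 fits each, Camkk2 in 16, Slc1a3 in 15, Per3 in 13, Dtna in 12, Hsd11b1 and Nrarp in 8 each and Timp4 in 5. Without vehicle Tg2576 replicates 3 and 4 together, these genes other than Pofut1, and also Lyz2, Igfbp6, S100a10 and Rgs4, lost the call. Each was read there at its probe set of smallest p, which for Timp4 is the dimmer one. Of the 12 genes of the list that holds Timp4, 1 fell in that fit at its brightest probe set, and none did with all arrays. With the dentate, astrocyte and oligodendrocyte scores as covariates Dio2 (-0.46, adjusted p = 0.276), Mtcp1 (-0.44, adjusted p = 0.274), Tdo2 (-0.56, adjusted p = 0.348) and Slc4a4 (-0.17, adjusted p = 0.488) were among those that lost it. Of the 32 genes 19 had further probe sets with a mean signal of 50 or more, 30 in all, of which 27 had the sign of the call and 19 did so at an unadjusted p below 0.05. The count of probe sets that passed was 25 without wild-type replicate 1 and 25 without wild-type replicate 3, against 39 with all arrays.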

How the data were processed

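Total RNA of the right hippocampus was labelled with biotin and hybridised to MOE430 2.0 arrays, 1 per animal, per the labels' protocols. The authors deposited linear intensity values from MAS5, per the submitters' processing notes (settings: not given in the sources used here). The trimmed mean over probe sets (2 percent off each end) was the same on all arrays.

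Of 45101 probe sets, 64 controls were left out. In the platform's annotation of probe sets, possibly outdated, 34945 have 1 gene, 932 several and 9160 none. The log2(signal + 16) values of all 33 arrays were fitted in limma 3.58.1 (R 4.3.3, lmFit and eBayes with trend and robust, 1 mean per group, 30 residual degrees of freedom), and p-values were adjusted by Benjamini-Hochberg at 0.05. The scale understates changes of dim genes. A gene was read at its brightest probe set, unless a probe set is named. The 38 lists hold 464 genes, 435 of them measured. Named genes are those that passed (up to 25 per direction), up to 4 passing members of a list or its member of smallest p, list members that describe it, and a fixed set with App, Prnp, Apoe, Abca1, Srebf1, Srebf2, Gfap and Ttr. Members, lists and rule were chosen with earlier results of these data known. The procedure was run on simulated data, with independent noise for each probe set and changes added only to brighter ones. That run does not cover changes of dim genes or variation shared between genes. Alternatives are given with the limits. Permutation tests and motif searches used Python 3.11.15 and scipy 1.17.1. The labels do not say that a replicate number pairs animals, and the main fit used no pairing. Deviations of animals with the same number correlated at -0.15 to 0.23 over 11 pairs.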

Additional observations from a re-analysis of the deposited data

How the results depend on the processing

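The count of 39 probe sets (24 genes) that passed was within 1.5 times under both pseudocounts, the filter on dim probe sets, quantile normalization, centred medians, the Gapdh ratio as a covariate and without vehicle Tg2576 replicates 3 and 4, with 30 to 52 probe sets (19 to 32 genes). Reading each gene above the filter by its brightest probe set or by their mean gave 30 and 31 genes. With array medians centred, 15 probe sets were higher and 20 lower (8 and 12 genes). It fell to 23 (15 genes) with the 22 vehicle arrays alone, 20 (13 genes) with plain eBayes, 12 (8 genes) in an exact rank-sum test and 16 (11 genes) with meningeal, choroid plexus and thalamic and striatal scores as covariates. Added after seeing the data, the array median as a covariate gave 64 (40 genes), and dentate, astrocyte and oligodendrocyte scores gave 3 (2 genes), Fdft1 and S100a10. Tdo2 and Slc4a4 are themselves members of those scores, and Igfbp6 is a member of the meningeal score. The cause of these changes was not tested. With 1 array left out the count ran from 25 to 52 probe sets and from 16 to 33 genes. The replicate block gave 44 probe sets and 27 genes, 32 and 21 of them shared, and the labels do not say that the numbers pair animals. Among single genes, the sign turned for Pofut1 (-0.098) and Abca1 (0.099) with the mean of probe sets, Prnp (0.024) with quantile normalization, Ttr without vehicle Tg2576 replicates 3 and 4 (0.14) or replicate 2 (0.044, within a range of -0.59 to 0.044 with 1 array left out), and Cyp7b1 (0.015), Rgs5 (0.12) and Abca1 (0.15) with the dentate, astrocyte and oligodendrocyte scores. Only Fdft1 kept its call in every alternative run.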

Other observations

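Neuronal activity and peptide genes were read from lists of their own, and none passed. Of 12 immediate early genes, which follow recent neuronal firing, 11 lay below 0 with a median of -0.19, among them Fos (65.9, 99.5 and 159.9 in wild type against 39.9, 64.8 and 119.9 in vehicle Tg2576, log2 difference -0.42, adjusted p = 0.332), Npas4 (-0.33), Junb (-0.29) and Nr4a1 (-0.28). Of 13 neuropeptides and secreted factors, 7 lay above 0 and 6 below. Nts, neurotensin, gave 72.8, 105.9 and 141.9 against 118.2, 147.5 and 208.0, with 7 of 11 animals above the wild-type range (0.45, adjusted p = 0.0595), and Tac2 (0.43) and Penk (0.41) were also above 0, while Cort (-0.42) and Pdyn (-0.26) were below. Of 11 interneuron markers none passed, with Vip at 0.31, Sst at -0.24 and Pvalb at -0.22.

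Of 17 genes of the endoplasmic reticulum chaperones and the unfolded protein response, none passed and 14 lay below 0, with Sdf2l1 at -0.51 (adjusted p = 0.135), Pdia4 at -0.47 and Hspa5, the chaperone BiP, at -0.16. None of 11 measured cytosolic heat shock genes passed, with a median of 0.01. Grm3, a metabotropic glutamate receptor, gave 209.9, 288.5 and 354.1 in wild type and 39.1, 190.9 and 296.0 in vehicle Tg2576 (-0.80, adjusted p = 0.248), and Spock1, a proteoglycan, gave 346.8, 422.3 and 556.6 against 33.7, 389.1 and 444.8 (-0.86, adjusted p = 0.471). Below the wild-type range lay 6 of 11 Tg2576 animals for Grm3 and 3 of 11 for Spock1. In both, the lowest Tg2576 animal lay far below that range.

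Covariation of 8 gene pairs was measured within each group, in 16 relations over 11 animals each. Fdft1 and Sqle varied together among vehicle Tg2576 animals (Pearson r = 0.85, permutation p = 0.00183, adjusted p = 0.0293, Spearman rho = 0.86, adjusted p = 0.0218), with r = 0.66 without the 2 animals farthest from the median, and gave r = 0.46 in wild type (permutation adjusted p = 0.318). Tdo2 and Dio2 did so in wild type (r = 0.78, permutation p = 0.00502, adjusted p = 0.0402, rho = 0.75, adjusted p = 0.0802), with r = 0.70 without the 2 farthest, and gave r = -0.33 in vehicle Tg2576. The difference between the groups was not tested, and 2 of the 16 relations passed by adjusted p of r.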
